A study of Mus musculus with 6 samples.

Results

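The genes described here are 10 of the 55367 gene names counted in primary mouse keratinocytes with and without iASPP: the arginases *Arg1* and *Arg2*, the genes of polyamine synthesis and breakdown *Odc1*, *Azin1*, *Srm*, *Sms* and *Sat1*, and the P5B transport ATPases *Atp13a2*, *Atp13a3* and *Atp13a4*. They were taken by name, and the group was chosen by values of the same experiment, namely the higher counts of *Atp13a4* and *Arg1* in iASPP-KO than in iASPP-WT cells. The difference between KO and WT is therefore given for these 10 genes as a description, with no p value. Primary keratinocytes were isolated from the skin of day 2 pups on a mixed background (C57BL/6 and 129/Sv). Both conditions carried the genotype *Ppp1r13l* flox/flox;Cre+ERT, in which a tamoxifen-inducible Cre is expressed from the *Rosa26* locus, a site active in most cell types, so that recombination is not limited to keratinocytes. For each of 3 batches, the cells were divided between medium with tamoxifen (iASPP KO) and medium without it (iASPP WT), giving 3 libraries a condition in same-batch pairs. Tamoxifen was added 24 h after plating and the cells were kept for 4 days in low-calcium medium, in which keratinocytes grow as basal-like cells. The WT cultures received no tamoxifen, so the drug and the deletion cannot be told apart.

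Arginase splits arginine into urea and ornithine, with *Arg1* encoding the cytosolic and *Arg2* the mitochondrial enzyme. Ornithine decarboxylase, encoded by *Odc1*, turns ornithine into putrescine, the first polyamine, and spermidine synthase (*Srm*) and spermine synthase (*Sms*) extend putrescine to spermidine and spermine. The acetyltransferase encoded by *Sat1* starts the way back, by marking spermidine and spermine for export or oxidation. Polyamines are needed for growth and translation, and *Odc1* is a classic gene of skin tumor promotion. P5B ATPases are membrane pumps, of which the products of *Atp13a2* and *Atp13a3* carry polyamines out of endosomes and lysosomes into the cytosol, and that of *Atp13a4* is a less studied relative.

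Library totals ran from 20202517 to 25157117 counts. At this depth 3 counts correspond to 0.119 to 0.148 counts per 1000000 (CPM), and intervals given here for counts cover counting error only. *Ppp1r13l*, the deleted gene, gave 320, 395 and 139 counts in KO batches 1, 2 and 3 and 697, 1100 and 472 in WT, a log2 fold change of -1.45 ± 0.18 (SE). All 9 keratinocyte markers examined were tested, and their summed level was 41843 to 52941 CPM in KO and 51675 to 58321 CPM in WT, with *Krt17* (1 of 9) lower in KO at the threshold. Batch 3 stood apart from the other batches: on the first principal component, which held 62.7% of the variance, its libraries lay at 29.6 (KO) and 49.3 (WT) against -32.2 to -5.36 for the other 4. Values are therefore given by batch. These are bulk cultures, in which fewer cells of a type and less RNA per cell cannot be told apart.

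*Sat1* was the most abundant of the 10 transcripts per length of exon and *Arg1* came next. Mean reads per kilobase of exon and 1000000 counts (RPKM) over the 6 libraries were 150 for *Sat1* (range 78.1 to 212) and 30.6 for *Arg1* (13.4 to 51.3). *Atp13a3* (20.3), *Azin1* (19.0), *Odc1* (17.4) and *Srm* (16.4) followed with overlapping ranges, and their order held in only 2 to 4 of the 6 libraries from one to the next. *Atp13a2* averaged 7.0 RPKM (4.70 to 9.09), *Atp13a4* 2.12 (0.0214 to 5.24), *Sms* 0.530 (0.333 to 0.918) and *Arg2* 0.345 (0.0934 to 0.921). Along this order only the steps from *Sat1* to *Arg1* and from *Srm* to *Atp13a2* had ranges that did not overlap. *Atp13a4* had the widest range for its level, spread over both condition and batch.

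**Figure D1:**
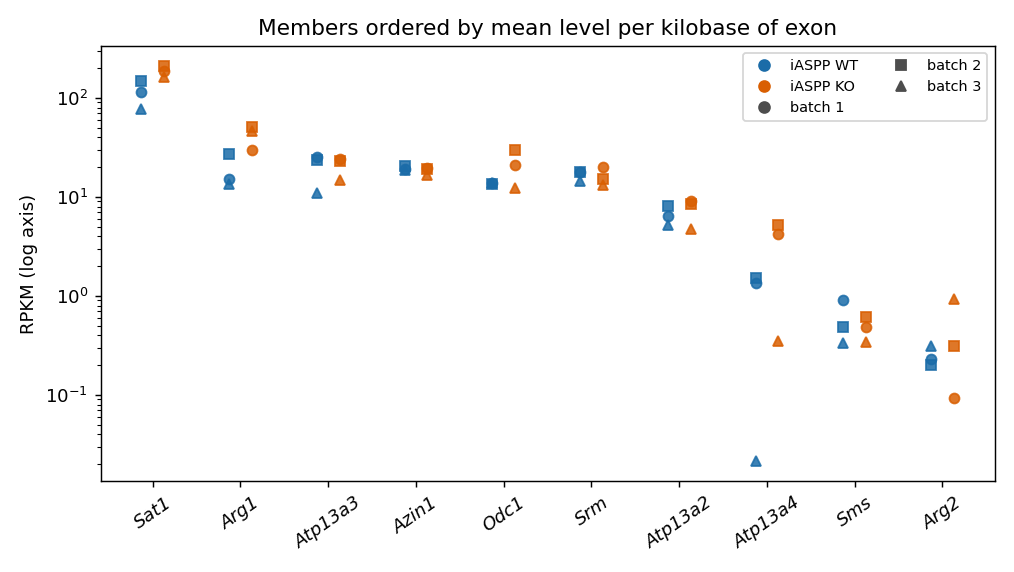
RPKM on a log axis for each of the 10 genes, ordered by the mean over 6 libraries, with color for the condition and symbol for the batch. *Sat1* lies above all others at 78.1 to 212 RPKM, and *Atp13a4* spans 0.0214 to 5.24 RPKM with its lowest points in batch 3.

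For some of these genes not every read can be placed. Reads of 42 bases with several alignments were not counted, and 46.1% of the 42-base windows of the longest *Odc1* transcript also occur in transcripts of 21 other gene names. The share was 28.8% for *Sms*, 22.2% for *Arg2*, 9.53% for *Sat1* and 6.58% for *Azin1*. It was 0% for *Arg1* and *Atp13a2*, and 0.381% for *Atp13a4*. Levels of *Odc1*, *Sms* and *Arg2* are therefore less certain than those of *Arg1* and the ATPases, while the comparison of a gene with itself across libraries uses the same windows throughout.

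Of the 9 genes with enough counts to be tested, *Arg1*, *Sat1* and *Atp13a4* (3 of 9) were called higher in KO in the edgeR quasi-likelihood test (p adjusted by Benjamini-Hochberg), and 0 of 9 were called lower (0 also by DESeq2 and at an unadjusted p under 0.05). Across all 14916 genes tested, 2.17% were called higher and 1.95% lower. Since the group was selected on this contrast, nothing is read from that difference in share. Without the batch term 0 of the 9 were called (2 at an unadjusted p under 0.05), at log2 fold changes of 1.19 for *Arg1*, 0.71 for *Sat1* and 1.76 for *Atp13a4*. The same 3 genes were above WT in KO within each of the 3 batches, as were 19.5% of all genes, and *Arg1* and *Sat1* (2 genes) had every KO library above every WT library, as had 5.26% of all genes. The median log2 fold change was 0.15 over the 9 genes and 0.01 over all genes tested.

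**Figure D2:**
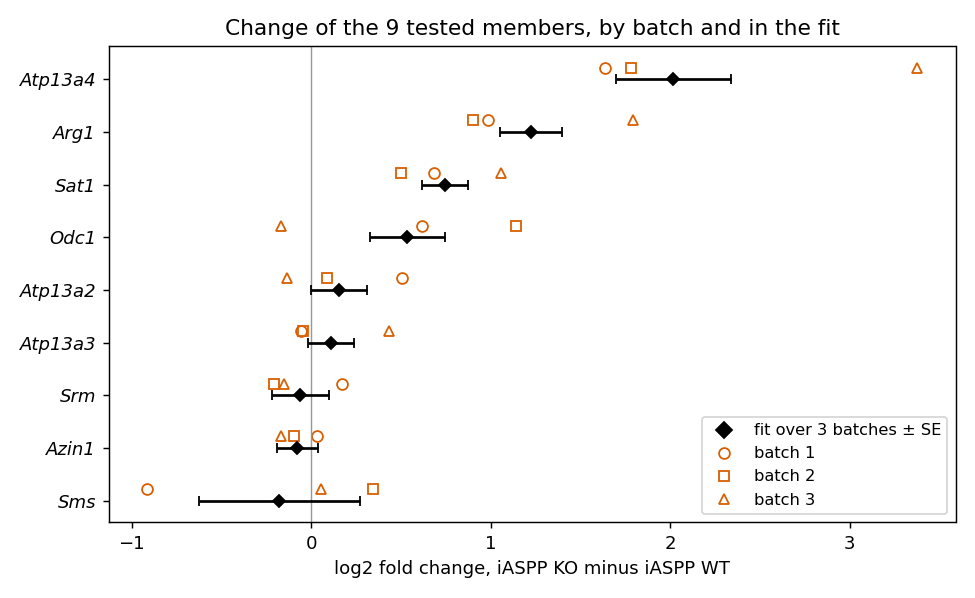
Log2 fold change of KO over WT for the 9 tested genes, with the fit over 3 batches (diamond, ± SE) and the value of each batch (open symbols). *Atp13a4*, *Arg1* and *Sat1* lie above 0 in all 3 batches, and *Odc1* lies above 0 in batches 1 and 2 and at -0.17 in batch 3.

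*Arg1* lies on chromosome 10 (GRCm38, chr10:24915221-24927484, minus strand). Its levels were 67.0, 114 and 103 CPM in KO batches 1, 2 and 3 and 33.8, 61.0 and 29.8 CPM in WT, that is, 94.9 ± 24.8 (SD, n = 3) against 41.6 ± 17.0. Every KO library lay above every WT library, although the KO library of batch 1 exceeded the WT library of batch 2 only narrowly. The fitted log2 fold change was 1.22 ± 0.17 (SE), or 2.34-fold. By batch, the ratio of KO to WT was 1.98 (exact 95% interval 1.81 to 2.17), 1.87 (1.76 to 2.0) and 3.47 (3.18 to 3.78). The ratio was thus larger in batch 3 than in the others beyond counting error, and with 1 library of each condition in a batch it has no replicate check. With any 1 batch left out, the log2 fold change stayed between 0.94 and 1.39.

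*Arg2*, on chromosome 12 (chr12:79130777-79156301, plus strand), was close to the limit of detection. It gave 3, 10 and 31 counts in KO and 7, 7 and 10 in WT, and did not pass the filter on low counts. The KO to WT ratio was 0.408 in batch 1 (exact 95% interval 0.0680 to 1.79), 1.56 in batch 2 (0.537 to 4.84) and 2.96 in batch 3 (1.41 to 6.76), so that only in batch 3 did the interval lie above 1. *Arg1* made up 97.7% to 99.7% of the summed arginase RPKM in the 6 libraries, and the arginase mRNA of these cultures was almost entirely *Arg1*.

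Because *Arg1* is also a well-known gene of macrophages, leukocyte markers were read in the same libraries. Their 14 genes summed to 64.7 to 87.1 CPM in KO and 44.0 to 66.5 CPM in WT, of the same order as *Arg1* alone, with most of it from *Cd68*, *Csf1r* and *Lyz2*. *C1qc* and *Cd3e* had 0 counts in every library, and *Cd163*, *Retnla* and *Chil3*, the last 2 typical of alternatively activated macrophages, had 0 to 4. *Ptprc*, the pan-leukocyte gene, had 0 to 50 counts. *Mrc1* and *C1qa* were found mostly in batch 3, at 100 and 48 counts in KO and 55 and 13 in WT. All 5 markers tested had a positive log2 fold change (median 0.60), 2 of them at an unadjusted p under 0.05 and 1 past the threshold. The latter, *Csf1r*, encodes a macrophage growth factor receptor. It had a log2 fold change of 1.11 (adjusted p = 0.0206, edgeR quasi-likelihood test, Benjamini-Hochberg), with 415, 641 and 123 counts in KO against 194, 368 and 43 in WT. *Adgre1* had 1.46 without passing (adjusted p = 0.57, edgeR), with 21, 1 and 54 counts in KO against 11, 0 and 15 in WT. The part of leukocytes in the *Arg1* difference was not tested.

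*Odc1*, the gene of the first committed step (chr12:17544794-17551505, plus strand), did not change in the same direction in all batches. It measured 72.2, 101 and 41.9 CPM in KO batches 1, 2 and 3 against 47.1, 45.9 and 47.1 CPM in WT. The WT libraries were nearly equal (46.7 ± 0.715 CPM, SD, n = 3), and the KO libraries spread on both sides of them (71.8 ± 29.7). The KO to WT ratio was 1.53 (exact 95% interval 1.42 to 1.66), 2.21 (2.06 to 2.38) and 0.890 (0.815 to 0.972), and the fitted log2 fold change was 0.54 ± 0.21 (SE). Without batch 3 it was 0.88 and was called, and without batch 2 or batch 1 it was not.

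*Azin1* (chr15:38487427-38519266, minus strand) encodes antizyme inhibitor, which frees ornithine decarboxylase from the antizyme that targets it for degradation. Its level was 123, 120 and 104 CPM in KO and 120, 128 and 117 CPM in WT, with a log2 fold change of -0.08 ± 0.11 (SE). It was the steadiest of the 10 genes in these libraries. Per kilobase of exon, *Odc1* stood at 0.659 to 0.740 times *Azin1* in WT and at 1.08, 1.55 and 0.740 times in KO, so the ratio lay well above the WT range in batches 1 and 2 and equaled that of its WT library, to 3 digits, in batch 3. Markers of dividing cells moved in these cultures as well: 5 of 6 fell in KO at the threshold. *Pcna* was also below WT in every batch without passing (log2 fold change -0.26, adjusted p = 0.34, edgeR). The sum of these markers was 174 to 479 CPM in KO and 331 to 801 CPM in WT. Their part in the values of *Odc1* was not tested.

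Neither of the synthases that follow was called. *Srm* (chr4:148591503-148594993, plus strand) measured 32.2, 24.5 and 21.0 CPM in KO and 28.5, 28.3 and 23.3 CPM in WT, with a log2 fold change of -0.06 ± 0.16 (SE). KO was above WT in batch 1 and below it in the other batches. *Sms* (chrX:157443855-157492287, minus strand) gave 65, 83 and 49 counts in KO and 118, 71 and 45 in WT, with a log2 fold change of -0.18 ± 0.45 (SE). Only in batch 1 did the exact 95% interval of its ratio exclude 1 (0.524, 0.381 to 0.715), and the sign of its change turned to 0.21 without that batch. The ratio of batch 2 was 1.28 (0.920 to 1.78), so batches 1 and 2 differed beyond counting error and the spread between batches is larger than the fitted difference.

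*Sat1* (chrX:155213132-155216449, minus strand), the gene of polyamine catabolism, was higher in KO in each batch. It measured 514, 588 and 451 CPM in KO against 321, 415 and 217 CPM in WT, or 518 ± 68.2 (SD, n = 3) against 317 ± 99.1. The groups did not overlap. Its log2 fold change was 0.75 ± 0.13 (SE), or 1.68-fold, with KO to WT ratios of 1.60 (exact 95% interval 1.56 to 1.65), 1.42 (1.38 to 1.45) and 2.08 (2.01 to 2.16). With 4872 to 13111 counts a library it had the most counts of the 10 genes, and leaving out any 1 batch kept the log2 fold change between 0.59 and 0.87. Set against the synthesis gene *Srm* per kilobase of exon, *Sat1* stood at 9.20, 13.8 and 12.4 times in KO and at 6.48, 8.46 and 5.37 times in WT, higher in KO in every batch.

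**Figure D3:**
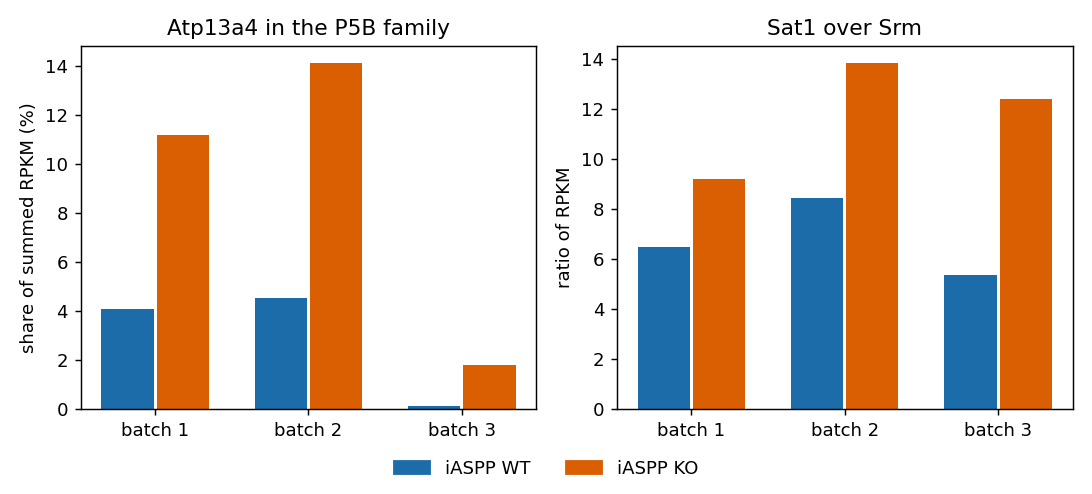
Left, *Atp13a4* as a percentage of the summed RPKM of *Atp13a2*, *Atp13a3*, *Atp13a4* and *Atp13a5*, and right, the ratio of *Sat1* to *Srm* RPKM, each by batch in WT and KO with bars from 0. In every batch the KO bar is the higher one, and the *Atp13a4* share falls from 11.2% and 14.1% in KO batches 1 and 2 to 1.79% in batch 3.

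Among the transporters, *Atp13a4* had the largest difference. It lies on chromosome 16 (chr16:29395853-29544864, minus strand), 17121 bp from its paralog *Atp13a5* and 767559 bp from *Atp13a3*. *Atp13a4* measured 26.3, 32.6 and 2.21 CPM in KO batches 1, 2 and 3 and 8.42, 9.42 and 0.133 CPM in WT. KO was above WT in every batch, but the conditions overlapped, since the KO library of batch 3 lay below the WT libraries of batches 1 and 2. The fitted log2 fold change was 2.02 ± 0.32 (SE), or 4.04-fold. By batch the KO to WT ratio was 3.13 (exact 95% interval 2.64 to 3.72), 3.46 (2.98 to 4.03) and 16.5 (5.35 to 82.8), the last from 52 counts against 3. Batches 1 and 2 thus gave close ratios from 180 to 728 counts a library, and the ratio of batch 3 rests on few reads. The log2 fold change was 1.72 to 2.34 with any 1 batch left out.

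*Atp13a3* and *Atp13a2*, the better-known polyamine exporters of the endosome and lysosome, were not called. *Atp13a3* (chr16:30312423-30405975, minus strand) measured 240, 229 and 146 CPM in KO and 250, 236 and 108 CPM in WT, with a log2 fold change of 0.11 ± 0.13 (SE). Its KO to WT ratio was below 1 in batches 1 and 2 (0.962 and 0.969) and 1.35 in batch 3 (exact 95% interval 1.28 to 1.42). *Atp13a2* (chr4:140986873-141007330, plus strand), mutated in an inherited form of parkinsonism, measured 54.5, 51.4 and 28.2 CPM in KO and 38.4, 48.5 and 31.0 CPM in WT, with a log2 fold change of 0.15 ± 0.16 (SE). Its ratio ran the other way, from 1.42 in batch 1 (1.30 to 1.55) to 0.910 in batch 3 (0.817 to 1.01). As a share of the summed RPKM of the P5B family, *Atp13a4* made up 11.2%, 14.1% and 1.79% in KO and 4.08%, 4.52% and 0.133% in WT. *Atp13a3* remained the main P5B transcript of these cells in both conditions by level per kilobase.

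**Figure D4:**
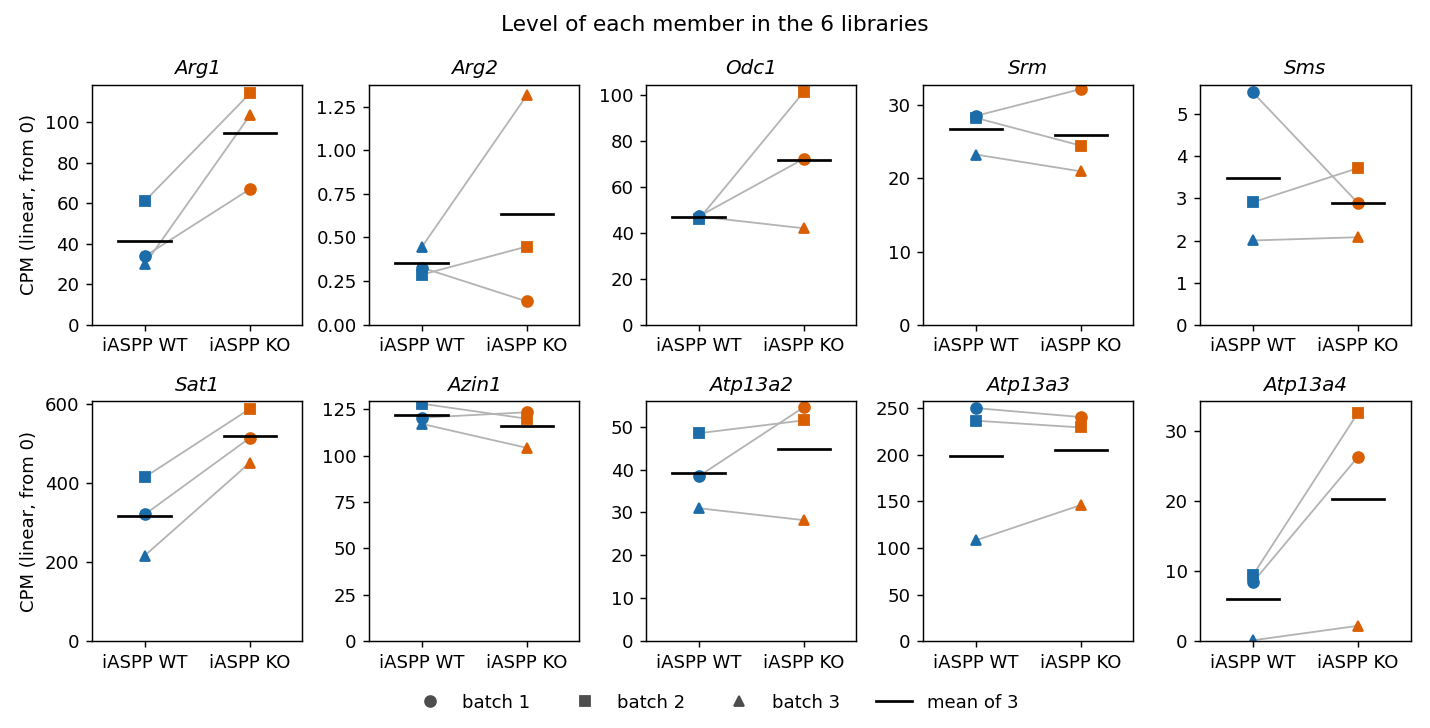
CPM of each of the 10 genes on a linear axis from 0, with WT left and KO right, a line joining the libraries of a batch and a bar at the mean of 3. *Arg1*, *Sat1* and *Atp13a4* have 3 rising lines each, and both batch 3 points of *Atp13a4* lie near 0 (0.133 and 2.21 CPM).

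Sequence before the transcription start is shown for *Atp13a4* and *Sat1*, the called genes for which a RefSeq promoter window was at hand (GRCm38.p6). Windows of 300 bases, 250 before the start and the rest after it, matched 5 of the 10 genes: *Odc1*, *Sms*, *Sat1*, *Atp13a2* and *Atp13a4*. They were searched on both strands for TGANTCA, the TRE-like motif of AP1 factors, and for CACGTG, an E-box of the kind bound by MYC. Both read the same on either strand, and although the motifs could share bases, the matches found here lie at different genes. The 250 bases before each start follow, 5′ to 3′ on the strand of the gene, with TGANTCA in capitals.
*Atp13a4*, outer start, chr16:29544865-29545114: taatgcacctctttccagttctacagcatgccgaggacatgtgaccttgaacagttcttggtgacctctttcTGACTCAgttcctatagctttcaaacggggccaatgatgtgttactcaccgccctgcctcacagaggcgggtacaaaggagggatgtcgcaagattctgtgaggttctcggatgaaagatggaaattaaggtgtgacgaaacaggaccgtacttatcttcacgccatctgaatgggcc
*Atp13a4*, inner start, chr16:29541484-29541733: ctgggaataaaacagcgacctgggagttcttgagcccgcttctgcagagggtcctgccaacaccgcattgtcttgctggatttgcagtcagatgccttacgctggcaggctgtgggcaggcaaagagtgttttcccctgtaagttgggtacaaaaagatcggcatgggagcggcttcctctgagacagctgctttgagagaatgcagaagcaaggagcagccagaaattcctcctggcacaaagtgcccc
*Sat1*, chrX:155216450-155216699: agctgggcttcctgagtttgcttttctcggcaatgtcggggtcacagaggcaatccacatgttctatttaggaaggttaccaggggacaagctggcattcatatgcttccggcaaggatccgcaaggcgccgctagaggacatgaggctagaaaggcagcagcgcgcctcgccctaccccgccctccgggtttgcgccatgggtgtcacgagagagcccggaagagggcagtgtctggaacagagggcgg
TGANTCA occurred once among the 7 windows, at the outer start of *Atp13a4*, with its first base at position -178 from the start, and CACGTG once, at a start of *Sms* (position -196). Of all 32851 promoter windows, 7.81% held TGANTCA and 7.15% CACGTG. A match describes letters in the window and not binding.

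The batches, whose comparison played no part in choosing the genes, differed most for the transporters *Atp13a4* and *Atp13a3*. Of the 9 genes tested, 5 differed between batches at an adjusted p under 0.05 (edgeR quasi-likelihood test, Benjamini-Hochberg), against 15.8% of all genes. They were *Atp13a4* (adjusted p = 0.00035), *Atp13a3* (0.0046), *Sat1* (0.043), *Atp13a2* (0.044) and *Arg1* (0.049). The fourth P5B gene, *Atp13a5*, did not pass (adjusted p = 0.071). Batch 3 lay below the mean of batches 1 and 2 by a log2 difference of -4.26 ± 0.41 (SE) for *Atp13a4*, -0.92 ± 0.14 for *Atp13a3*, -0.69 ± 0.17 for *Atp13a2* and -0.51 ± 0.14 for *Sat1*. For *Atp13a4* this difference between batches was thus larger than that between KO and WT. *Arg1* was no lower in batch 3 (-0.15 ± 0.18), and its highest library in either condition was that of batch 2. *Odc1* (adjusted p = 0.27), *Srm* (0.28), *Sms* (0.43) and *Azin1* (0.65) did not pass. Without batch 3 only *Arg1* differed (adjusted p = 1.2e-06), and *Atp13a4* (0.79) and *Atp13a3* (0.91) did not. Without batch 2 only *Atp13a3* and *Atp13a4* passed, and without batch 1 all but *Arg1* (0.056).

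Other markers also set batch 3 apart. Fibroblast markers summed to 453 (KO) and 667 CPM (WT) there against 33.7 to 51.4 CPM in the other 4 libraries, and markers of differentiated keratinocytes to 201 and 226 CPM against 554 to 1539 CPM. Batch 3 thus had more fibroblast and less summed differentiation RNA together with less *Atp13a4*. The differentiation sum was mostly *Krt1*, and *Ivl* in WT was higher in batch 3 (29.6 CPM) than in batch 1 (26.0). *Lyz2* (59.0 CPM in KO, 49.5 in WT) and the summed markers of dividing cells (479 and 801 CPM) were highest in batch 3. Other leukocyte markers went the opposite way. *Cd68* was at 10.9 (KO) and 8.94 CPM (WT) in batch 3 against 29.8 to 42.4 CPM in the other libraries. *Csf1r* was at 5.22 and 1.91 CPM against 9.07 to 28.7 CPM. The part of any of these in the *Atp13a4* level was not tested. Between KO and WT the fibroblast and differentiation lists held genes on either side. Of the 6 fibroblast genes *Col1a2* and *Col3a1* fell, while *Pdgfra* had a log2 fold change of 0.81 (adjusted p = 0.26, edgeR), with KO above WT in batches 1 and 2 and below it in batch 3. Of the 5 differentiation genes *Krt10* and *Flg* fell, while *Ivl* was above WT in every batch without passing (log2 fold change 0.62, adjusted p = 0.10, edgeR) and *Lor* had 0.32 (0.47). Melanocyte markers summed to 394 to 1034 CPM in KO and 341 to 1086 CPM in WT, and endothelial markers to 2.33 to 12 CPM in KO and 2.15 to 5.16 CPM in WT.

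Of 49 related genes listed by function, 36 were tested, 0 were called higher and 1 was called lower in KO by edgeR's quasi-likelihood test. With 2.17% of all genes called higher and 1.95% lower, these counts are near the background. At an unadjusted p under 0.05, 2 were higher and 4 lower, and DESeq2 called 2 higher (*Smox* and *Slc3a2*) and 2 lower (*Oat* and *Cav1*). The median log2 fold change of the 36 was 0.09. The gene that fell was *Oat*, whose mitochondrial enzyme takes ornithine away from polyamine synthesis toward glutamate and proline. It gave 2411, 2276 and 3752 counts in KO and 3070, 3136 and 6189 in WT, lower in KO in every batch. Its log2 fold change was -0.52 ± 0.12 (SE), with an adjusted p of 0.0489 (edgeR). The adjusted p rose to 0.12 without batch 1, to 0.12 without batch 2 and to 0.97 without the batch term.

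Around the polyamine core, 8 of 13 genes were tested and 0 passed in either direction by edgeR (1, *Smox*, at an unadjusted p under 0.05 and by DESeq2), with a median log2 fold change of -0.00. *Smox*, encoding spermine oxidase, which turns spermine back into spermidine, measured 87.7 ± 20.8 CPM (SD, n = 3) in KO and 65.0 ± 13.8 in WT, with a log2 fold change of 0.43 ± 0.12 (SE) and within-batch values of 0.51, 0.43 and 0.34. Its adjusted p was 0.076 by edgeR and 0.043 by DESeq2, so the call depended on the tool. The antizymes *Oaz1* and *Oaz2*, which bind ornithine decarboxylase and slow polyamine uptake, had log2 fold changes of -0.13 (adjusted p = 0.66) and 0.10 (0.85). *Amd1*, which supplies the aminopropyl donor for both synthases, had -0.16 (0.61), and the polyamine oxidase gene *Paox* had 0.10 (0.94). All 4 genes of hypusine, the spermidine-derived amino acid of the translation factor eIF5A, were tested and 0 passed (0 by DESeq2 also, and 1, *Eif5a2*, lower at an unadjusted p under 0.05). *Dhps*, which transfers the spermidine group, had 0.13 (0.72).

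Of the 17 genes of arginine and ornithine metabolism, 13 were tested, 0 were higher and *Oat* was lower. *Ass1*, whose enzyme rebuilds arginine from citrulline, had a log2 fold change of 0.34 (adjusted p = 0.43, edgeR quasi-likelihood test, Benjamini-Hochberg) with within-batch values of 0.57, 0.63 and -0.16. Of the 15 transport genes, 11 were tested and 0 passed by edgeR (*Slc3a2*, higher, and *Cav1*, lower, did so at an unadjusted p under 0.05 and by DESeq2). *Slc7a1*, the main arginine importer of many cells, measured 229 ± 19.3 CPM (SD, n = 3) in KO and 218 ± 103 in WT, with a log2 fold change of 0.20 (0.73). Its within-batch values were -0.27, -0.16 and 1.07, so its positive fitted value, like that of *Atp13a3*, came from batch 3. *Slc25a2*, a mitochondrial ornithine carrier gene, had very low counts, 17, 14 and 10 in KO against 3, 0 and 2 in WT. It did not pass the threshold (adjusted p = 0.31, edgeR). It entered the test only through its KO libraries, since its WT counts were too low for the filter, so nothing is read from this order. Outside the transport list, *Mtap* and *Eif5a2* had log2 fold changes of -0.21 (adjusted p = 0.56, edgeR) and -0.47 (0.26) and did not pass either. Of the 36 related genes tested, 21 had a positive and 15 a negative log2 fold change. *Slc3a2*, the shared heavy chain of several amino acid transporters, was at 200 ± 41.2 CPM in KO and 148 ± 31.4 in WT (log2 fold change 0.43 ± 0.11, adjusted p = 0.064 by edgeR and 0.015 by DESeq2).

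**Figure D5:**
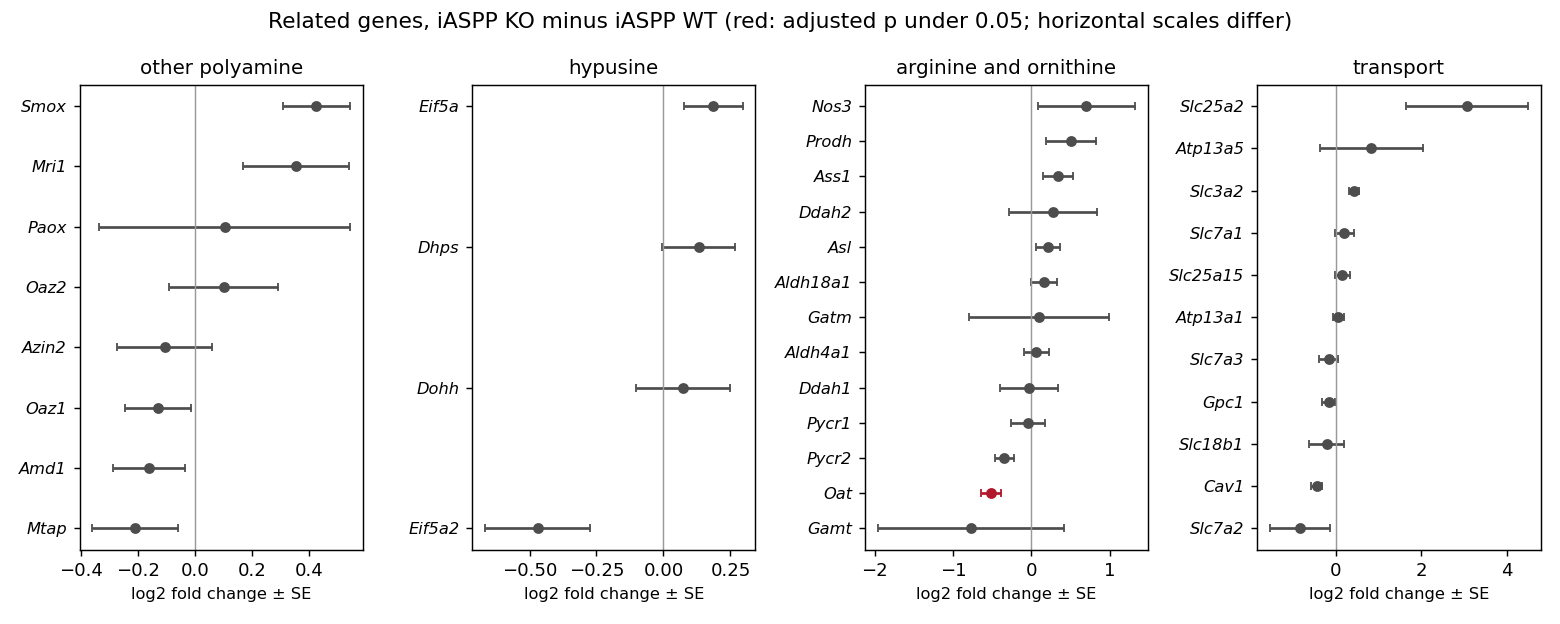
Log2 fold change of KO over WT (± SE) for the 36 tested related genes in 4 groups, each panel with its own horizontal scale and genes past the adjusted p threshold in red. *Oat*, at -0.52, is the only red point, and the median of the 36 is 0.09.

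*Atp13a5*, the fourth P5B gene and the neighbor of *Atp13a4*, was barely detected, with 27, 28 and 0 counts in KO and 23, 10 and 0 in WT. Its log2 fold change was 0.84 ± 1.2 (SE; adjusted p = 0.81, edgeR quasi-likelihood test, Benjamini-Hochberg). Like *Atp13a4*, it had its lowest values in batch 3. The only other tested gene within 200 kb of *Atp13a4* was *Opa1*, which encodes a mitochondrial fusion protein and had a log2 fold change of -0.06 (adjusted p = 0.86). Near *Arg1*, *Med23*, a Mediator subunit gene whose annotated end lies 1540 bp from *Arg1* on the other strand, was the only tested neighbor of 8, with a log2 fold change of -0.29 (adjusted p = 0.33).

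The genes most like *Arg1* over the 6 libraries, by the root mean square difference of log2 CPM after centering each gene on its mean, were *Plscr1* (0.148), *Atp1b1* (0.176) and *Pgbd5* (0.201). All 3 were counted at far lower levels than *Arg1*, at 0.711 to 9.46 CPM. For *Atp13a4* they were *Abcc3* (0.507), *Fetub* (0.555) and *Gsta4* (0.572). *Gsta4*, a glutathione transferase gene, measured 1091, 1289 and 57.8 CPM in KO and 602, 800 and 10.1 in WT, and *Abcc3*, an export pump gene, measured 77.4, 84.9 and 5.51 CPM in KO and 34.05, 51.4 and 1.24 in WT. Both had the low batch 3 of *Atp13a4* along with KO above WT in every batch. They were picked for this likeness over the same libraries, so the shared pattern is no separate observation.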

How the data were processed

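RNA from 3 iASPP-KO and 3 iASPP-WT keratinocyte cultures was depleted of ribosomal RNA and sequenced as single reads of 42 bases. The authors trimmed reads with Cutadapt, aligned them to GRCm38 (mm10) with STAR and deposited raw counts per gene name on exons of the GENCODE vM25 annotation (featureCounts 2.0.0, reverse-stranded, multi-mapping reads left out). They also deposited their own DESeq2 comparison, with fold changes and p-values, which was not used here. The p63 ChIP-seq of the study was not analysed here. Groups and batches come from the sample labels.

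The main test was the quasi-likelihood F test of edgeR 4.0.16 (R 4.3.3) with batch and condition as terms, after filterByExpr on condition and TMM scaling. P-values were adjusted by Benjamini-Hochberg over 14916 genes, with a threshold of 0.05. The fit had 2 residual degrees of freedom, 8.17 prior degrees and a common dispersion of 0.0627. CPM and RPKM were computed here from TMM-scaled library sizes and the exon lengths of the count table. Within-batch log2 fold changes used a prior count of 2, and ratios of 2 counts have exact (Clopper-Pearson) 95% intervals. Shared windows were sought in GENCODE vM21 transcripts, and promoters are from RefSeq. In data simulated for KO against WT (14636 genes, 193 tested genes changed by a log2 value of 1.5), edgeR recovered 88.6% with 3.39% false calls, and DESeq2 76.7% with 5.13%. The simulation gave every gene the common dispersion and the same change in each batch, so its rates need not hold for these data.

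Deviations from the condition means correlated within every batch (r = 0.603, 0.707 and 0.771 over 8775 genes), so the batch numbers pair the libraries. Libraries of one condition differed far beyond sampling noise (chi-square per degree of freedom 40.1 to 169). Whether batches are separate litters is not given in the sources used here. With batch as a term, p-values therefore refer to the spread of the KO to WT difference between these cultures. That spread is not each gene's own alone. With 8.17 prior against 2 residual degrees of freedom, it is drawn largely from the other genes. Tamoxifen was used at 1 μM in the paper's methods and at 1 mM in the labels.

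The 10 genes, the lists of related genes and the marker lists were chosen with earlier results of these data known. Named are all 10 genes, related genes past the threshold, *Oaz1*, *Oaz2*, *Amd1*, *Smox*, *Paox*, *Oat*, *Slc7a1*, *Ass1*, *Dhps* and *Atp13a5*, tested neighbors within 200 kb of *Arg1* or *Atp13a4*, the 3 genes most alike to each, and markers. *Slc3a2*, *Slc25a2*, *Cav1*, *Eif5a2* and *Mtap* were named after their values were seen. Alternatives were no batch term, DESeq2 1.42.0, 2 other scalings, 2 other filters, robust dispersion, each batch left out, another prior count and unscaled totals.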

Additional observations from a re-analysis of the deposited data

How the results depend on the processing

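Without the replicate block for batch, edgeR called 0 genes higher and 0 lower (360 and 331 at an unadjusted p under 0.05), 0 related genes lower and 0 of the 9 tested genes of the group higher (2 at an unadjusted p under 0.05), with log2 fold changes of 1.19 for *Arg1*, 0.71 for *Sat1* and 1.76 for *Atp13a4*. Taking out the block turned no direction among the 9 genes. Over all genes, against 323 higher and 291 lower, DESeq2 called 539 and 442 and the fit with no filter beyond 1 count called 624 and 491. With 1 batch left out the counts ran from 169 to 793 higher and from 117 to 662 lower, the highest without batch 3. Among the related genes, DESeq2 called 2 higher and 2 lower, no filter 1 and 2, while at least 10 counts in every library and the robust dispersion each added 1 higher gene, *Slc3a2*. Leaving out a batch gave 0 to 2 related genes higher and 0 to 2 lower: *Oat* was lost without batch 1 and without batch 2, and without batch 3 *Smox*, *Slc3a2* and *Cav1* were called too. Genes that differ between batches numbered 689 to 2644 with a batch left out, the lowest without batch 3, and genes of the group 1 to 4. Upper-quartile scaling left 3 of these 5 genes, without *Sat1* (adjusted p = 0.056) and *Atp13a2* (0.060). With 1 batch left out the log2 fold change turned its sign for *Srm* (-0.18 to 0.017, above 0 without batch 2), *Sms* (-0.45 to 0.21, above 0 without batch 1), *Atp13a2* (-0.019 to 0.29, below 0 without batch 1) and *Atp13a3* (-0.051 to 0.20, below 0 without batch 3), none of them called. *Odc1* was called without batch 3 (0.88) and with no filter. *Arg1*, *Sat1* and *Atp13a4* kept their direction and call under every alternative with a batch term that tested them. *Atp13a4* was left out by the filter of at least 10 counts in every library. The group was chosen for the rise of *Atp13a4* and *Arg1* in these same libraries, so these refits describe the processing and are no independent check. The cause of the changes between settings was not tested. The choice of prior count changed no within-batch value beyond the replicate spread, and with unscaled totals 1 of 20 levels per kilobase moved, *Odc1* in WT (14.1 in place of 13.7 RPKM). Low counts limit *Arg2*, *Atp13a5* and batch 3 of *Atp13a4*.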
